A study of Mus musculus with 2 samples.

Results

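The mature neutrophils of mouse periodontal tissue that carried transcripts of the chemokines *Ccl3* and *Ccl4* were examined by single-cell RNA sequencing (scRNA-seq). A cell was neutrophil-gated when *S100a8* and *S100a9* took at least 2% of its unique molecular identifiers (UMIs, counted transcript molecules) and at least 2 of *Csf3r*, *Cxcr2*, *Retnlg*, *Hdc*, *Il1r2* and *Mmp8* had a UMI. It was mature when the granule genes *Camp*, *Ngp* and *Ltf* together took under 1 UMI per 1000, and Ccl3/Ccl4-high when *Ccl3* and *Ccl4* together reached 1 UMI per 1000. These limits gave 171 Ccl3/Ccl4-high cells of 1819 kept cells, 163 of 936 in the library of ligature-induced periodontitis (LIP) and 8 of 883 in that of control mice. The remaining 129 mature cells, 114 LIP and 15 control, are called Ccl3/Ccl4-low. Because the cells were chosen by *Ccl3* and *Ccl4*, the levels of both genes and every high-to-low ratio are given as a description, without a test.

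Both libraries were made from wild-type C57BL/6 mice aged 8 weeks, each from the pooled periodontal tissue of 5 mice. The LIP mice had a ligature placed 7 days earlier and the control mice received no treatment. No map from cells to mice was at hand, so each condition was 1 sample, no p-value was computed, and library and condition cannot be told apart. All intervals are exact 95% intervals for counting error only, since cells of 1 library are not replicates.

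CCL3 and CCL4, also called macrophage inflammatory proteins 1α and 1β, are small secreted ligands that draw leukocytes carrying receptors such as CCR1. Neutrophils are the first phagocytes to enter the infected gingiva, and they leave the bone marrow with little transcription and switch on cytokine and chemokine genes after they meet microbial products. In periodontitis they gather between the tooth surface and the epithelium, close to the alveolar bone that is lost.

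Some genes that the rule did not use were read beside the label. They are given here for the members alone, so they do not set high cells apart from low cells. *Acod1*, the itaconate gene given as a marker of these cells, was found in 154 of 163 LIP and 7 of 8 control cells. *Trem1*, an amplifying receptor of myeloid cells, was found in 150 of 163 LIP cells and *Clec4d*, a C-type lectin, in 161. *G0s2*, an inhibitor of lipolysis abundant in mature neutrophils, was found in 133, and *Mmp9*, the gelatinase of tertiary granules, in 113. Macrophage-gated LIP cells carried *Clec4d* too, at a log2 ratio of 2.21, members over them. Of 8 secondary and tertiary granule genes, 3 were at least 2-fold higher in members than in macrophage-gated cells. These were *Lcn2*, *Mmp9* and *Mmp8*, and *Mmp8* is a gene of the gate, so the rule touches this count. The 3 genes *Cybb*, *Chil3* and *Lyz2* were at least 2-fold lower. Of all genes, 15.8% were higher and 48.8% lower. The LIP cells held 602593 UMIs in all, with a lowest, median and highest depth of 505, 3819 and 9591 UMIs, and a median of 984 genes. The 8 control cells held 28014 UMIs, between 2814 and 4407 each. Ccl3/Ccl4-low LIP cells were of similar depth, with a median of 3506.5 UMIs. No member carried one of the 2 barcodes that the libraries shared, and the doublet caller Scrublet marked 1 LIP member.

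Markers of 13 other cell classes were summed over the LIP members. The 11 macrophage markers came to 370.1 UMIs per 1000000 (CPM), against 326 in low cells, with *C1qa*, *Ms4a7*, *Fcgr1* and *Mrc1* at 0. T cell, B cell, and mast or basophil markers came to 18.3, 3.32 and 1.66 CPM. Schwann cell markers came to 568 CPM, and 1 member had 3.78% of its UMIs in them. In the control members the macrophage markers summed to 535 CPM, against 202 CPM in control low cells, with 8 of the 11 at 0, and T cell and B cell markers were at 0. One LIP low cell had 81.4% of its UMIs in haemoglobin genes, which put all 4 haemoglobin genes among the lowest high-to-low ratios. *Il17a* and *Ctla4* stood there too, with 222 of 224 and 52 of 53 low-cell UMIs in 1 cell each, and without that cell their log2 ratios were 0.01 and -0.58.

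*Ccl3* (ENSMUSG00000000982) lies on the reverse strand at chr11:83647844-83649355 and *Ccl4* (ENSMUSG00000018930) on the forward strand at chr11:83662584-83664683 in GRCm38. The stretches of 250 bases before the RefSeq transcript start (GRCm38.p6) are shown for *Ccl3*, by which the cells were chosen, and for *Cxcl3*, *Il1a* and *Inhba*, ligand genes among the 15 with the highest high-to-low ratio. They are chr11:83649379-83649628 on the reverse strand, chr5:90785851-90786100 on the forward strand, chr2:129309973-129310222 on the reverse strand and chr13:16011601-16011850 on the forward strand. Each is written 5′ to 3′ along the gene, with matches to the NF-κB motif and to TATAAA in capitals.
Ccl3: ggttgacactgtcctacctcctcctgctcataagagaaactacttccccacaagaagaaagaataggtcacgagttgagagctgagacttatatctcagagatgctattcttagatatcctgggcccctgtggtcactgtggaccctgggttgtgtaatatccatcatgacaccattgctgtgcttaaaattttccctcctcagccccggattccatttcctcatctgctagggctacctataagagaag
Cxcl3: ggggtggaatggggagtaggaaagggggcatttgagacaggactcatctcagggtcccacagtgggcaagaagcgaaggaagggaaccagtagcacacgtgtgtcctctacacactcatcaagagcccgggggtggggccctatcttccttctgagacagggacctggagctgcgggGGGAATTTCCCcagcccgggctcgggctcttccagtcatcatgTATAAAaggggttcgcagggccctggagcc
Il1a: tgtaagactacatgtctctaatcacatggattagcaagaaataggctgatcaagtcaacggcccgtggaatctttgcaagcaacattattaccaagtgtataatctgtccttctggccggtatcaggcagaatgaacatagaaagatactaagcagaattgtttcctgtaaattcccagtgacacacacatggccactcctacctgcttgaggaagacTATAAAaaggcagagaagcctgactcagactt
Inhba: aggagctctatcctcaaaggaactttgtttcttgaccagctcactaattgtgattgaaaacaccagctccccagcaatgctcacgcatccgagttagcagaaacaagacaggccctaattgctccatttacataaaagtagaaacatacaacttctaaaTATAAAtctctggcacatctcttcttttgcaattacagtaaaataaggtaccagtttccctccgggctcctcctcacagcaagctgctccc
*Cxcl3* held the NF-κB match GGGAATTTCC from 73 to 64 bases before the start, with an overlapping match on the other strand from 72 to 63, and TATAAA from 30 to 25. *Il1a* held TATAAA from 32 to 27 and TGACTCA, a match to TGANTCA, from 12 to 6 bases before the start. *Inhba* held TATAAA from 91 to 86 and a reverse-strand match to TTGCNNAA from 67 to 60. Among 32851 windows of this length, 3.9% held an NF-κB match on either strand, 7.59% TATAAA on the strand of the gene, 6.75% TGANTCA, 9.56% TTGCNNAA on either strand and 1.55% TGACGTCA. The *Ccl3* window held none of these letters, which says nothing of any factor.

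*Ccl3* and *Ccl4* varied widely among the cells chosen by them. In the LIP members the summed level ran from 1.03 to 93.9 UMIs per 1000, with a median of 6.13 and quartiles of 2.83 and 14.4. In the 8 control members it ran from 1.05 to 11.1 with a median of 4.47, inside the LIP range. The 10 LIP cells with the most UMIs of these genes held 35.5% of the members' total, and 57 LIP cells reached 10 per 1000. The 3 LIP members just above the cut had 1.03, 1.05 and 1.08 UMIs per 1000 and the 3 cells just below it 0.981, 0.969 and 0.937, so nothing separated them. Of the 114 low cells 73 had no UMI of either gene and 23 had 1. In 10 members the level rested on 1 to 3 UMIs, and 8 members and 11 low cells had under 1000 UMIs, where a single UMI passes the cut.

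**Figure D1:**
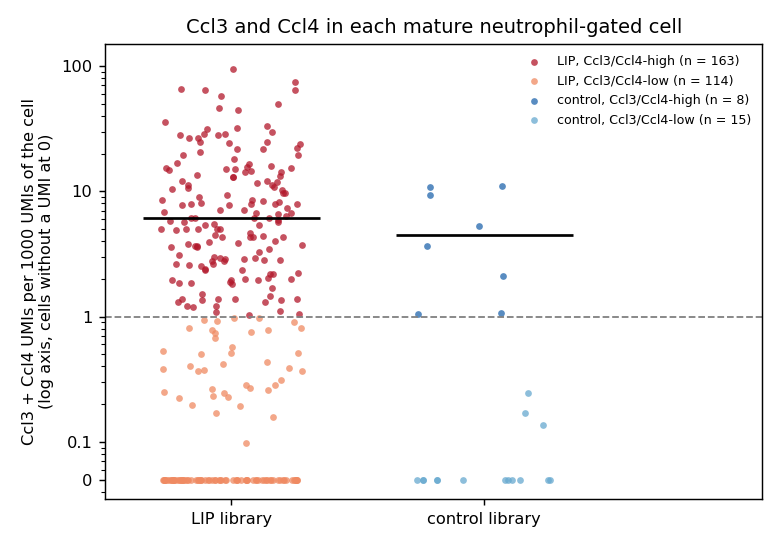
Each point is 1 mature neutrophil-gated cell, with the summed Ccl3 and Ccl4 UMIs per 1000 UMIs on a log axis, the cut of the rule as a dashed line and the median of the high cells as a bar. The 163 LIP members spread from 1.03 to 93.9 per 1000 and the 8 control members from 1.05 to 11.1, and the level runs through the cut without a gap.

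Most LIP members carried both chemokines. Both were found in 103 of 163, *Ccl3* alone in 50 and *Ccl4* alone in 10, and in the control library 2 of 8 cells had both and 6 had *Ccl3* alone. *Ccl3* stood at 6880.3 CPM (6672 to 7093) in LIP and 4926 CPM (4139 to 5819.9) in control members. *Ccl4* stood at 5813 CPM (5622 to 6009) in LIP and 999.5 CPM (664 to 1445) in control members, where all 28 UMIs came from 2 cells. *Ccl4* gave 45.8% (44.7 to 46.9) of the summed UMIs of LIP members and 16.9% (11.5 to 23.4) in control members. Among LIP cells its share was 29.2% from 1 to 3 UMIs per 1000, 26.4% from 3 to 10 and 51.0% from 10 upwards. Macrophage-gated cells had a higher share, 65.6% (63.2 to 68.0) in LIP and 77.5% (74.1 to 80.6) in control. These are shares of 3′ UMI counts, in which each molecule counts once whatever its length. Across the 163 LIP cells, the 2 levels had a Spearman rho of 0.11, given as a description of cells from 1 library chosen by the sum of both.

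The members made up 17.4% (15 to 20) of kept LIP cells and 0.906% (0.392 to 1.78) of kept control cells. Within the mature neutrophil-gated cells they were 163 of 277 in LIP, or 58.8% (52.8 to 64.7), and 8 of 23 in control, or 34.8% (16.4 to 57.3). The counting intervals of these 2 shares overlapped. In the LIP library the members held 64.7% of the *Ccl3* UMIs of all kept cells and 48.8% of those of *Ccl4*, while macrophage-gated cells held 8.26% and 14.1%. The 46 neutrophil-gated LIP cells rich in granule genes held 3.68% and 0.822%. A further 22.5% of *Ccl3* and 36.0% of *Ccl4* lay outside both gates, in cells that were not sorted further. In the control library the members held 37.2% of *Ccl3* and 3.85% of *Ccl4*, and the 18 macrophage-gated cells 40.4% and 70.9%.

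Transcripts of the S100 alarmins and of the inflammatory response ranked highest in the members. The gate required *S100a8* and *S100a9* to take at least 2% of a cell's UMIs, so their rank and levels are set in part by the rule. *S100a9* (80238 CPM), *S100a8* (59626) and *Fth1* (46859), the ferritin heavy chain, ranked first in LIP members, followed by *Cxcl2* (30226), a neutrophil attractant acting on CXCR2. *Il1b* (13895), *Cd14* (7722), *Ccl3* itself, *Nfkbia* (6601) and *Acod1* (5971), which makes itaconate, were among the leading 20. *S100a8* took a lowest, median and highest 1.65, 48.2 and 142 UMIs per 1000 in LIP members and 9.52, 28.4 and 64.1 in control members.

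Against the Ccl3/Ccl4-low cells of the LIP library, 67 of 1896 genes with 50 UMIs over both groups (3.53%) were at least 2-fold higher in the high cells, *Ccl3* and *Ccl4* included, and 61 (3.22%) at least 2-fold lower. The median log2 ratio of all genes was -0.11. This contrast was set by the rule, so its counts describe the cells and support nothing. Of the 46 genes named here or held in the lists that passed 2-fold, 17 did not without the cell of either group with the most UMIs of the gene, among them *Csf1*, *Hk2*, *Pgam1*, *Cflar*, *Bcl2a1a*, *Alox5* and *Mmp8*, whose ratios were then between 0.85 and 0.99 in size.

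Among CXC chemokines, 3 of the 4 that had enough UMIs were at least 2-fold higher in the high cells, *Cxcl3*, *Cxcl1* and *Cxcl10*, with a median log2 ratio of 1.44 over the 4. *Cxcl3*, another CXCR2 ligand, was at 2039.5 CPM in high and 609 in low cells, a log2 ratio of 1.74 (1.55 to 1.94). It was found in 68 of 163 high and 30 of 114 low cells, and most cells of both groups had none. *Cxcl2* stood at 30226 against 15591 CPM, with medians of 21 and 10.3 UMIs per 1000, and its log2 ratio of 0.96 (0.91 to 1.0) lay just under 2-fold. *Cxcl1* was in only 13 high cells, of which 1 gave 45 of 86 UMIs, and its log2 ratio of 1.13 was 0.07 without that cell. *Cxcl10*, a ligand of CXCR3, had 35 of its 44 high-cell UMIs in 1 cell, and without that cell the log2 ratio was -0.37 in place of 1.92. Of the other CC chemokines *Ccl6* alone had enough UMIs, at 1396 against 1584 CPM.

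Of 11 cytokine and growth factor genes with enough UMIs, 4 were at least 2-fold higher in the high cells and none lower, with a median log2 ratio of 0.71. *Il1a*, the alarmin interleukin 1α, was at 672 against 186 CPM, a log2 ratio of 1.85 (1.5 to 2.22). It was found in 44.2% of high and 18.4% of low cells, and in 27.1% and 9.88% after thinning each cell to 1000 UMIs. *Il1rn*, the antagonist of the interleukin 1 receptor, was at 3989 against 1777 CPM, 1.17 (1.05 to 1.29) on the log2 scale. *Csf1*, the macrophage growth factor, had a log2 ratio of 1.13 (0.66 to 1.61) and *Csf3*, which drives granulopoiesis, 1.92 (0.93 to 3.05) with 55 UMIs in 17 high cells. With the cut at 2 per 1000 *Csf3* was no longer 2-fold higher, at 0.18 (-0.56 to 0.93). *Il1b* was high in both groups, at 13895 and 11371 CPM, and its ratio of 0.29 was far below 2-fold. *Tnf* was at 972 against 592 CPM, 0.71 (0.50 to 0.94) on the log2 scale. *Osm*, encoding oncostatin M, differed by less than counting error, at 352 against 309.5 CPM with a log2 ratio of 0.18 (-0.14 to 0.51).

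As a rough look at free RNA, the 115 epithelial-gated LIP cells were read, whose median depth was 25484 UMIs against 3819 in the members. *Il1b* was found in 35.7% of epithelial-gated cells and 100% of members, and at 1000 UMIs per cell in 2.23% and 96.7%. After the same thinning *Ccl3* was found in 0.652% and 86%, *Tnf* in 0.57% and 50.4%, *Osm* in 0.0281% and 21.3%, and *Cxcl3* in 4.09% and 34.8%. The 155 members with at least 1000 UMIs entered these shares, and each share of the members exceeded the epithelial share. Thinning dilutes a fixed amount of free RNA per cell more in the deeper epithelial-gated cells. These shares therefore cannot bound free RNA in the members.

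Beside *Ccl3* and *Ccl4*, the gene with the highest ratio was *Inhba*, which encodes the βA subunit of activin A. It had 175 UMIs in 22 of 163 high cells and 4 UMIs in 2 of 114 low cells, a log2 ratio of 4.91 (3.53 to 6.80). One cell held 56 of the UMIs and another 54, and the ratio was 4.36 without the first and 3.50 without both. *Thbs1*, encoding the matrix glycoprotein thrombospondin 1, was at 2739.8 against 834 CPM and was found in 96 high and 40 low cells. *Hilpda*, a hypoxia-inducible lipid droplet protein, had a log2 ratio of 2.53 (1.53 to 3.72) from 20 high cells. The *Hilpda* ratio was 4.65 with the mitochondrial limit at 5% and 4.55 with *S100a8* and *S100a9* at 5%. One low cell held 7 of its 9 low-cell UMIs, and without that cell the ratio was 4.67. The transcripts Gm12840 and 2010005H15Rik had 3.55 (2.64 to 4.64) and 3.98 (2.37 to 6.29). *Saa3*, an acute-phase protein gene, had 2.36, and 0.70 without 1 cell that held 87 of its UMIs. The others among the leading 15 were *Med21*, *Tinf2*, *F10*, *Esd* and *Tnfrsf26*, between 1.78 and 2.46. At the other end, apart from the genes of single cells named above, *Hlx*, *Cpne3*, *Hist1h1c* and *Twf2* had log2 ratios from -1.67 to -1.54 on 17 to 30 UMIs in the high cells.

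**Figure D2:**
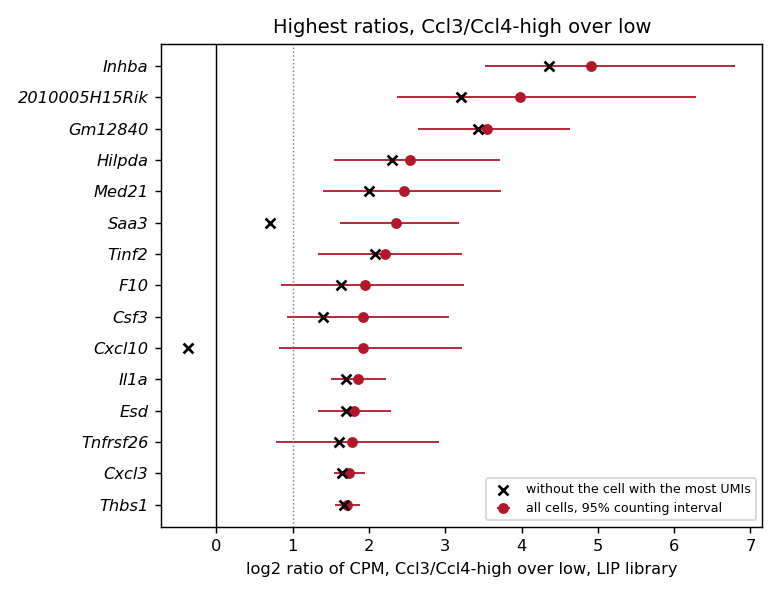
Points show the log2 ratio of CPM between Ccl3/Ccl4-high and low LIP cells for the 15 genes with the highest ratio, with 95% counting intervals as lines, and crosses show the ratio without the cell that held the most UMIs. Saa3 and Cxcl10 drop to 0.70 and -0.37 without 1 cell, while Cxcl3 and Thbs1 hardly move.

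The LIP cells were also divided into 5 ranges of the *Ccl3* and *Ccl4* level, with 73 cells without a UMI, 41 up to 1 per 1000, 46 from 1 to 3, 60 from 3 to 10 and 57 from 10 upwards. Going up these ranges *Il1rn* was at 1798, 1749.7, 2421, 3309 and 5773 CPM, and *Cxcl2* at 15888, 15194, 19726, 21694 and 46080.2 CPM. The step of *Cxcl2* thus lay between the last 2 ranges. *Thbs1* was at 927, 711, 2049, 2278 and 3685 CPM, with its largest fold rise at the cut. *Il1a* was at 212, 152, 492, 644 and 827 CPM. In the range from 1 to 3, 1 cell of 3329 UMIs stood at 10.2 *Il1a* UMIs per 1000. The place of the *Il1a* step is therefore not read. *Inhba* was at 12.7, 5.64, 82, 77.2 and 648 CPM, and the highest range held both of the leading cells and stood at 161 CPM without them. *Osm* was at 326, 288, 265, 236 and 528 CPM and had no steady course. *Cxcr2*, the receptor that guides neutrophils to CXCL2 and CXCL3 and a gene of the gate, went the other way, at 1100.1, 982, 801, 767 and 496 CPM.

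**Figure D3:**
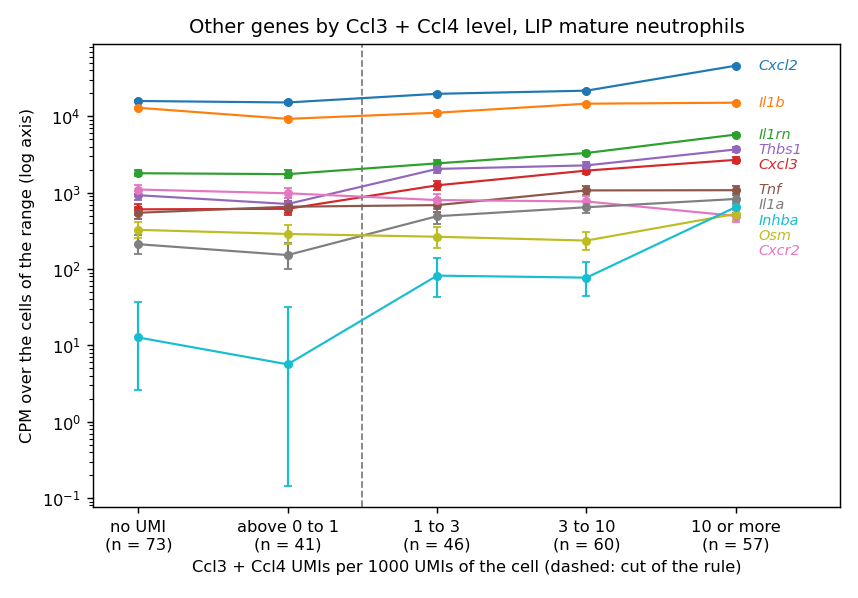
Lines show CPM on a log axis over 5 ranges of the Ccl3 and Ccl4 level among LIP mature neutrophils, with 95% counting intervals as bars and the cut of the rule dashed. Il1rn, Cxcl3, Thbs1 and Inhba are higher to the right of the cut, Cxcr2 is lower in the highest range, and Osm has no steady course.

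Enzymes and sensors of the response were led by genes with high levels in both groups. *Acod1* was at 5971 against 3562 CPM, 0.75 (0.66 to 0.83) on the log2 scale. At 1000 UMIs per cell it was found in 91.6% of high and 81.7% of low cells, against 0.833% of epithelial-gated cells. *Ptgs2*, the inducible prostaglandin synthase, was at 1589.8 against 921, 0.79 (0.61 to 0.96). Of 8 genes of lipid mediators, itaconate and amines, *Sod2*, the mitochondrial superoxide dismutase listed with them, was 2-fold higher (1.19, 0.88 to 1.51) and *Alox5*, which starts leukotriene synthesis, 2-fold lower (-1.02, -1.86 to -0.20). Of 15 microbe-sensing genes, 2 were higher and none lower, *Cd14*, the lipopolysaccharide co-receptor (1.07, 0.99 to 1.16, at 7722 against 3666 CPM), and *Irak3*, a brake on Toll-like receptor signalling (1.51, 0.89 to 2.17). None of 19 surface receptor genes passed 2-fold in either direction, with a median of 0.32. The CCL3 receptor gene *Ccr1* was at 1426 against 1137 CPM and *Ccrl2*, a chemerin-binding receptor, at 2599 against 1642 CPM.

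NF-κB genes and their feedback inhibitors had a median log2 ratio of 0.29, and 1 of 18, *Nfkb2*, passed 2-fold (1.16, 0.52 to 1.84). *Nfkbia*, the inhibitor IκBα, was at 6601 against 4977 CPM, 0.41 (0.33 to 0.49). Of 11 survival and apoptosis genes 3 were higher and none lower, *Cflar*, an inhibitor of caspase 8 (1.04, 0.60 to 1.5), *Bcl2a1d* (1.32, 0.72 to 1.95) and *Bcl2a1a* (1.09, 0.46 to 1.76), the latter pair near-identical paralogs of an anti-apoptotic gene between which reads may be split wrongly. Of 21 glycolysis and hypoxia genes 3 were higher, at a list median of 0.10. These were *Hilpda*, the hexokinase gene *Hk2* (1.13, 0.27 to 2.08) and *Pgam1* (1.10, 0.52 to 1.71). Without the high cell with the most UMIs of the gene, *Cflar*, *Bcl2a1a*, *Hk2* and *Pgam1* were at 0.99, 0.93, 0.85 and 0.90, under 2-fold. Of 15 interferon-stimulated genes 2 were higher, *Cxcl10*, which rested on 1 cell, and *Rsad2*, an antiviral enzyme (1.59, 0.94 to 2.29), at a list median of 0.06.

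Several lists held no gene past 2-fold. These were the 26 immediate-early and heat-shock genes (median 0.06), the 14 adhesion and surface genes (-0.09), the 9 oxidative stress and metal response genes (0.38), both STAT feedback genes (-0.03) and the 3 stefin A genes (-0.13). Of 6 secondary and tertiary granule genes *Mmp8*, the neutrophil collagenase and a gene of the gate, was lower (-1.19, -1.58 to -0.81), and of 5 S100 genes *S100a13* (-1.54, -2.48 to -0.66). No primary granule gene reached 50 UMIs.

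In the control library the same contrast could be read for 246 genes over 8 high and 15 low cells, of which 33 (13.4%) were at least 2-fold higher, *Ccl3* included, and 7 (2.85%) lower, at a median log2 ratio of 0.26. With totals taken without *S100a8* and *S100a9* the split was 17 higher and 16 lower. *Nr4a1*, *Atf3* and *Egr1*, transcription factor genes of the immediate-early response, had log2 ratios of 3.13 (2.15 to 4.24), 3.07 (2.13 to 4.13) and 1.99 (1.36 to 2.65), and *Hspa5*, the chaperone of the endoplasmic reticulum, 2.56 (1.69 to 3.49). *Atf3* was found in 7 of 8 high and 6 of 15 low cells. In all, 7 of 16 immediate-early and heat-shock genes were higher, with a median of 0.89. The same genes in the LIP library stood at 0.04, 0.59, 0.26 and 0.18, and the difference between the libraries was not tested. *Cxcl2* and *Acod1*, under 2-fold in the LIP library, had 1.48 (1.27 to 1.68) and 1.21 (0.80 to 1.62) in control. Lowest were *Wfdc21* (-2.69, -3.72 to -1.81) and *Ifitm6* (-2.53, -4.46 to -1.09), with *Retnlg* and *Mmp8* of the gate and *S100a8* (-1.5, -1.59 to -1.40) and *S100a9*. Of 32 such genes past 2-fold, 11 did not pass it without 1 cell, *Acod1* (0.98) and *Cd14* (0.88) among them. Among the 246 genes, *Cd14* was at least 2-fold higher in both libraries beside *Ccl3*, and *Ifitm6*, *Mmp8* and *Retnlg* were lower in both.

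The condition was compared within the members, 163 LIP against 8 control cells. Of 1301 genes with 50 UMIs in all, 164 (12.6%) were at least 2-fold higher in LIP and 183 (14.1%) at least 2-fold lower, and the median log2 ratio was -0.14. A gene with 50 UMIs and equal levels would give 2.22 UMIs in the control cells, so the count holds many genes whose interval spans 0. In simulated counts for this comparison, 14.8% of genes with no change put in passed 2-fold. Only the genes named with an interval clear of 0 are read, as a description. Such an interval covers counting error alone, not the spread between cells or mice, and it can rest on a single cell, as for *Id1*. Of 78 named or listed genes past 2-fold, 34 did not pass it without the cell of either group with the most UMIs. Over the low cells 126 of 1134 genes (11.1%) were higher in LIP and 38 (3.35%) lower.

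Chemokine, cytokine and sensing genes stood as follows. *Ccl4* had a log2 ratio of 2.54 (2.01 to 3.13) and *Ccl3* of 0.48 (0.24 to 0.74), values that the choice of cells touches. *Cxcl2* was at 30226 CPM in LIP and 14957 in control members, a log2 ratio of 1.01 (0.88 to 1.16), and of 1.54 (1.38 to 1.70) in low cells. Its lowest, median and highest level per 1000 UMIs was 0, 21 and 143 in LIP members and 0.235, 13.3 and 36.3 in control members, so the groups overlapped, and without the leading LIP cell the ratio was 0.96. *Il1rn* was at 3989 and 1535 CPM, 1.38 (0.94 to 1.85) in members and 0.38 (0.06 to 0.71) in low cells. *Cd14* had 1.27 (0.96 to 1.58) in members and 1.42 (1.11 to 1.75) in low cells, *Nlrp3*, an inflammasome sensor, 1.2 (0.67 to 1.79) and 1.26 (0.83 to 1.71), and *Ccrl2* 1.60 (1.02 to 2.25) and 1.51 (1.04 to 2.03). *Il1b* was at 13895 and 10709 CPM, 0.38 (0.21 to 0.55), less than 2-fold. *Tnf* and *Osm* gave intervals that span 0, 0.07 (-0.50 to 0.69) and -0.70 (-1.43 to 0.13), with 26 and 16 control UMIs.

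*Thbs1* had one of the largest ratios with more than 3 control UMIs, at 2739.8 CPM in LIP and 428 in control members, 2.68 (1.87 to 3.63), and it was found in 96 of 163 and 3 of 8 cells. In low cells its ratio was 1.84 (1.10 to 2.69). *Sod2* had 362 LIP UMIs and 1 control UMI, a ratio of 4.07 (1.59 to 9.38), *Bcl2l11*, which encodes the pro-apoptotic protein BIM, 218 and 1, 3.34 (0.85 to 8.65), against 0.08 in low cells, and *Sqstm1*, an autophagy receptor, 258 and 2, 2.58 (0.72 to 5.64). Apart from *Ccl4*, with 28 control UMIs, the others of the leading 15 had 1 to 3 control UMIs, and the interval of *Isy1* spanned 0. *Fth1* was 1.80 times as high in LIP members, 0.85 (0.74 to 0.95), and similarly in low cells, 0.89 (0.79 to 0.99). Of 3 stefin A genes 2 passed 2-fold, *Gm5483* with 1.87 (1.12 to 2.75) and *Stfa1*, without a UMI in the control members, with a log2 ratio of at least 1.57 against the limit of 3 counts over the group. One LIP cell held 70 of the 192 *Stfa1* UMIs, and without it the value was 0.94, under 2-fold. Of 10 survival genes 5 were higher and none lower (median 0.99), of which *Bcl2l11* and *Bcl2a1b* (1.97, 0.84 to 3.42) had intervals clear of 0. Of 8 oxidative stress and metal genes 4 were higher and none lower (median 1.16), of which *Sqstm1* and *Txnrd1* (1.58, 0.20 to 3.47) had intervals clear of 0. Beside these counts, 12.6% of all genes were higher and 14.1% lower. Without the leading LIP cell *Bcl2a1a* was at 0.85. Without the leading control cell *Bcl2a1d* was at 0.60 and *Mt1* at -0.26, against the limit of 3 counts, as no control UMI was left.

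Of 25 immediate-early and heat-shock genes, 6 were at least 2-fold lower in LIP than in control members and 2 higher, with a median log2 ratio of -0.50. *Egr1* was at 672 CPM in LIP and 2106 in control members, -1.65 (-2.04 to -1.23), *Nr4a1* at 509 and 1499, -1.56 (-2.03 to -1.06), *Atf3* had -1.52 (-1.97 to -1.03), *Junb* -1.03 (-1.29 to -0.77) and *Dusp2*, a phosphatase of mitogen-activated protein kinases, -1.94 (-2.49 to -1.35). One control cell held 19 of the 42 *Nr4a1* UMIs, and without it the ratio was -0.84. Without 1 control cell *Junb* was at -0.78, under 2-fold, whereas *Egr1*, *Atf3* and *Dusp2* were at -1.22, -1.16 and -1.56. When *S100a8* and *S100a9* had to take 5% of a cell's UMIs, the ratio was -0.52 (-1.38 to 0.50) for *Nr4a1* and -1.91 (-2.40 to -1.39) for *Egr1*. That setting left out the control members with 2.54%, 4.44%, 4.53% and 4.93% of their UMIs in both genes. In low cells the values were 1.54 (0.67 to 2.56) for *Nr4a1*, 0.97 (0.12 to 1.95) for *Atf3* and 0.09 (-0.44 to 0.65) for *Egr1*, and 4 of 24 genes of the list were higher and none lower. *Jun* and *Dnajb1* were higher in LIP members on 4 and 1 control UMIs, with intervals that span 0. The receptor genes *Cxcr4*, which holds neutrophils in the bone marrow (-1.71, -2.26 to -1.11), *Cxcr2* (-1.01, -1.49 to -0.49) and *Il17ra*, a subunit of the interleukin 17 receptor (-2.11, -2.95 to -1.16), were lower, as was the adhesion gene *Selplg*, which encodes the sialomucin PSGL-1 (-1.14, -1.64 to -0.62). Without 1 control cell *Cxcr4* was at -0.91 and *Cxcr2* at -0.96. The formyl peptide receptor genes *Fpr1* (1.47, 0.23 to 3.10) and *Fpr2* (2.03, 0.47 to 4.32) were higher on 5 and 3 control UMIs, and in low cells they stood at -0.01 and 0.06. *Dhx40* (-2.44, -3.15 to -1.68) and *Pdlim2* (-2.39, -3.41 to -1.23) had the lowest ratios, and *Id1*, an inhibitor of differentiation factors, stood at -2.20 (-2.99 to -1.32) and at -0.02 without the cell that held the most of its UMIs. Of the other lists, microbe sensing had 4 of 13 genes higher and 2 lower. NF-κB and feedback genes had 2 of 17 higher (*Nfkb1* and *Tnfaip3*), and glycolysis and hypoxia genes 2 of 16 in each direction. Of all genes 12.6% were higher and 14.1% lower, so these counts are given without a reading. In the S100 list 0 of 4 genes passed 2-fold.

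**Figure D4:**
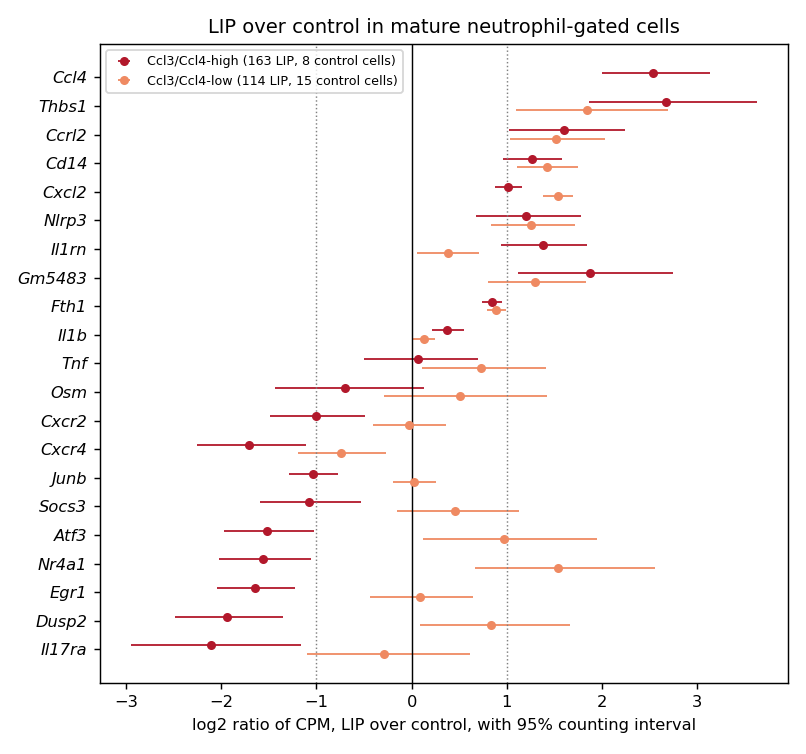
Points show the log2 ratio of CPM between the LIP and control libraries in Ccl3/Ccl4-high and in Ccl3/Ccl4-low cells for genes of the lists, with 95% counting intervals as lines. Cxcl2, Cd14, Ccrl2 and Thbs1 are higher in LIP in both kinds of cells, while Nr4a1 and Atf3 are lower in LIP among high cells and higher among low cells.

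Macrophage-gated LIP cells were set beside the members. The 51 cells had a median of 16668 UMIs, and levels are given in CPM. Their dendritic cell markers summed to 17879 CPM, more than their macrophage markers at 5477 CPM, and 19 of the 51 had at least 1% of their UMIs in the dendritic list. Of 3537 genes 560 (15.8%) were at least 2-fold higher in the members and 1726 (48.8%) lower, at a median log2 ratio of -0.95. *Ccl3* was at 6880.3 against 556 CPM and *Ccl4* at 5813 against 1061, ratios set in part by the choice of members. *Ccl6* was higher too, 1.97 (1.79 to 2.16), and *Ccl2*, *Ccl5*, *Ccl9* and *Ccl24* were at least 2-fold lower, *Ccl24* through 1 macrophage-gated cell. Of 13 cytokine genes 8 were higher in the members and 3 lower, among them *Il1b* (2.29, 2.23 to 2.35, at 13895 against 2838 CPM), *Il1rn* (1.69, 1.59 to 1.79), *Il1a* (1.31, 1.09 to 1.55) and *Osm* (1.47, 1.14 to 1.80, at 352 against 127 CPM). *Tnf* was under 2-fold higher, 0.74 (0.57 to 0.91). Of 14 microbe-sensing genes 11 were higher and none lower, of 20 surface receptor genes 12 and 1, and of 24 glycolysis and hypoxia genes 3 and 9. The 12 receptor genes included *Il1r2*, *Cxcr2* and *Csf3r* of the gate, so that count is set in part by the rule. *Acod1* had 4.11 (3.95 to 4.28). The stefin A gene *Stfa2l1* (10.40, 7.92 to 15.70, 1 macrophage UMI) and *G0s2* (8.64, 7.71 to 9.77) were among the highest, and *Ms4a6c*, *Arg1*, *C1qb* and *Cxcl16* among the lowest, between -8.59 and -7.89 with 1 or 2 UMIs in the members. Of all kept LIP cells' UMIs, the members held 45.9% of *Il1b*, 49.0% of *Cxcl2*, 59.4% of *Acod1*, 36.7% of *Osm* and 31.9% of *Tnf*, and the macrophage-gated cells 14.8%, 20%, 5.43%, 21.0% and 30.1%.

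**Figure D5:**
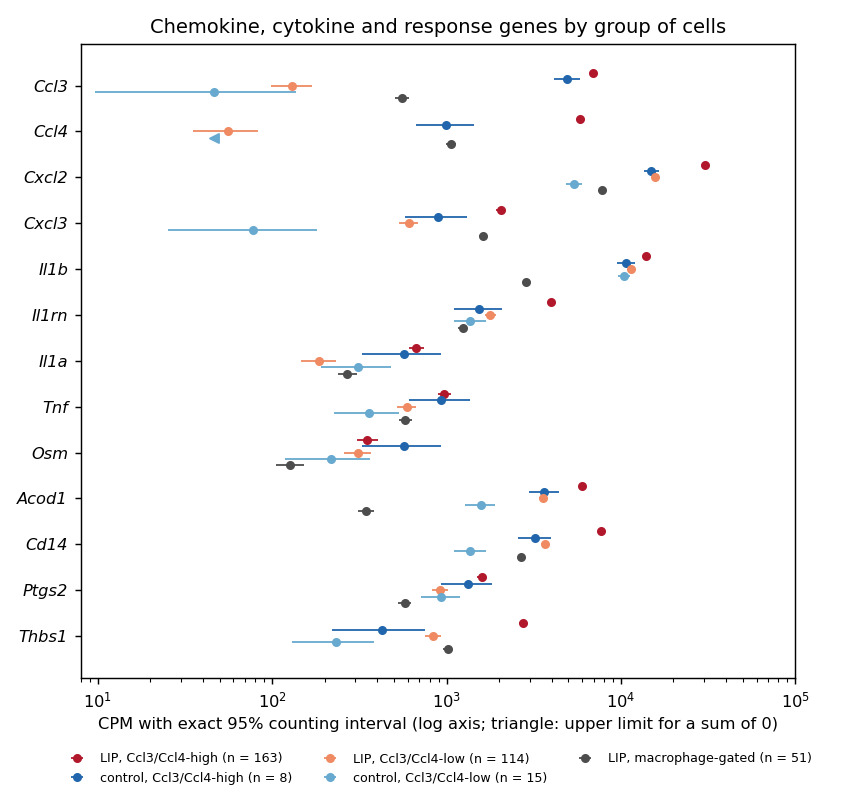
Points show CPM on a log axis for 5 groups of cells with exact 95% counting intervals as lines, and a triangle marks the upper limit for a sum of 0. LIP members have the highest Cxcl2, Il1rn, Acod1, Cd14 and Thbs1 of the 5 groups, whereas the Osm and Tnf intervals of LIP and control members overlap.

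Within the LIP members, the 22 cells with an *Inhba* UMI were set beside the other 141, at median depths of 4011.5 and 3819 UMIs. Their median *Ccl3* and *Ccl4* level was 13.7 against 5.52 UMIs per 1000. *Thbs1* was found in 81.8% (59.7 to 94.8) of them and 55.3% (46.7 to 63.7) of the others, and *Cxcr2* in 50% (28.2 to 71.8) and 78.7% (71.0 to 85.2). *Cd274*, which encodes PD-L1, was found in 68.2% (45.1 to 86.1) and 41.1% (32.9 to 49.7). All 3 pairs of intervals overlapped. *Il1rn* stood at 7345 and 3399 CPM and *Ptgs2* at 3040.1 and 1335 CPM. The 113 members with a *Ccl4* UMI and the 50 without one were alike in *Il1b*, at 14036 and 13539 CPM. *Osm* was found in 52.2% (42.6 to 61.7) and 32% (19.5 to 46.7) of them, with overlapping intervals, and *Icam1*, an adhesion ligand of integrins, stood at 338 and 732 CPM. These splits were made after the levels were seen.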

How the data were processed

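Single-cell RNA-seq was carried out on the 10x Genomics 3′ platform with 1 LIP library and 1 control library of mouse periodontal tissue, each pooled from 5 mice. The authors deposited UMI counts per gene and barcode, made with Cell Ranger (3.1.0 in the matrix header, 3.0 in the study's methods) against mm10, for 31053 genes, which were used as deposited without correction for free RNA. The LIP library had 1212 barcodes and 14236327 UMIs, of which 936 barcodes were kept, and the control library 1169 barcodes and 16472915 UMIs, of which 883 were kept. Kept cells had at least 200 and at most 7500 genes, at most 60000 UMIs and at most 10% mitochondrial UMIs. Scrublet (scanpy 1.11.5) marked 1 LIP and 4 control barcodes as doublets, which were left in.

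Macrophage-gated cells lay outside the neutrophil gate and had a UMI of at least 3 of 8 macrophage genes, such as *C1qa*, *Csf1r* and *Adgre1*, and epithelial-gated cells had at least 4 of 9 epithelial genes. UMIs were summed over the cells of a group and divided by the group's total (CPM). Ratios have exact conditional intervals, levels exact Poisson intervals and shares exact Clopper-Pearson intervals, all at 95%. With 1 sample per condition no test was run. A gene was counted as higher or lower at a 2-fold difference when it had at least 50 UMIs over both groups, and a sum of 0 was set to a limit of 3 counts over the group. Thinned shares are the expected share of cells with a UMI among 1000 drawn UMIs. The steps were tested on simulated counts that held counting error only. Of genes with no change put in, 14.8% passed 2-fold for LIP against control members. For high against low LIP cells it was 0.425%.

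Genes named were those of the rule, those of 18 lists (278 genes), the 15 highest and 10 lowest ratios of each comparison, and the 20 highest levels in LIP members. The members and lists were chosen with earlier results of these data known. The 11 other settings tried covered the cut, the gate, the quality limits, doublets, scaling, cell weights, the UMI minimum and thinning. Promoter and motif windows came from RefSeq (GRCm38.p6), and gene positions from GENCODE vM21. Analyses used Python 3.11.15, numpy 2.4.6, scipy 1.17.1, pandas 2.3.3 and matplotlib 3.10.9.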

Additional observations from a re-analysis of the deposited data

Results flagged for a closer look

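In each library, 1 barcode outside the quality limits met the neutrophil gate, the granule limit and the chemokine cut, 1 in LIP and 1 in control, and neither entered any value above. Some abundant genes stood on opposite sides of equality in the 2 libraries when Ccl3/Ccl4-high cells were set over Ccl3/Ccl4-low cells, with both counting intervals clear of 0. *Selplg*, which encodes the sialomucin PSGL-1, had log2 ratios of -0.55 in LIP and 1.09 in control. *Junb*, an AP-1 subunit gene, had -0.33 and 0.73, *G0s2* 0.20 and -0.71, and *Actb*, cytoskeletal actin, -0.10 and 0.33. The median log2 ratio of all genes was itself -0.11 in LIP and 0.26 in control, and *Actb* lay close to both medians. The difference between the libraries was not tested, and the control values came from 8 high and 15 low cells.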

How the results depend on the processing

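Of 116 summary values under the alternatives, 96 stayed within their limits and 20 moved, and of 451 values of single genes 387 stayed, 63 moved and 1 reversed. The share of high cells among mature LIP cells was 65.0% with the cut at 0.5 per 1000 and 49.1% at 2 per 1000. At 2 per 1000, 92 genes were 2-fold lower in high than in low LIP cells and 13 in control, *Cxcl10* turned to -2.30 on the log2 scale in LIP, and *Csf3* was at 0.18. *Hilpda* was at 4.65 with the mitochondrial limit at 5% and at 4.55 with *S100a8* and *S100a9* at 5%. At the main settings it was at 4.67 without 1 low cell. With *S100a8* and *S100a9* at 1%, 74 genes were higher and 97 lower in control high cells, at 5% 14 were lower, and with totals without both genes 17 were higher and 16 lower. At a minimum of 20 UMIs the counts were 143 higher and 242 lower for high against low LIP cells, 109 and 39 in control, 673 lower in LIP than in control members and 3416 lower than in macrophage-gated cells. Thinning to 500 UMIs in place of 1000 gave shares of LIP members of 92.6% for *Il1b*, 34.5% for *Tnf*, 13.6% for *Osm*, 18.1% for *Il1a* and 82.5% for *Acod1*. With *S100a8* and *S100a9* at 5%, *Ccl3* and *Ccl4* had LIP-to-control ratios of 0.11 and 1.81 among members, on fewer control cells than the 8. Leaving out cells with 1% of markers of another class, and leaving out the 1 or 2 cells with the most UMIs of a gene, were chosen after seeing the data. The cause of these shifts was not tested. No paired analysis was possible because each condition was 1 library. The 8 control members and their 28014 UMIs limit every comparison with the control, and the intervals do not cover the spread between mice.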
